A study of Mus musculus with 36 samples.

Results

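Satellite cells are the stem cells of skeletal muscle. They lie between the muscle fibre and its basement membrane, rest in quiescence for most of adult life, and divide to rebuild fibres after injury. Their number and their capacity for repair decline with age, and ageing muscle is known for more inflammation and for changes in the matrix around the cells. The comparison described here is that of quiescent satellite cells (QSC) from old mice with those from young mice. Its members are 6 of the 36 libraries of the series, chosen by their labels: 3 libraries of old cells and 3 of young cells, all from resting, uninjured muscle. The old mice were 24 months old and the young mice 3 months old. All were C57BL/6 mice labelled wild type, with no allele, reporter, tamoxifen or other agent named for these 6 samples. The study's design text describes sorting by YFP in reporter mice, and how the cells of these wild-type mice were sorted is not stated in the labels. RNA was extracted from freshly sorted cells with the PicoPure kit. Whether a library came from 1 mouse or from pooled mice is not stated either, so p-values measure only the spread between these libraries, which may be partly technical. The question is which genes of satellite cells labelled quiescent differ with age. The other 9 libraries of the same table, from old and young cells 1 day after cardiotoxin injury (1 DPI) and old cells 3 days after it, with 3 in each group, helped to estimate the spread. The 1 DPI groups were also used to ask whether age differences before injury were still there after it.

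Expression was deposited as TPM, a transcript abundance relative to the total of its library and to transcript length, and the sequencing depth is unknown. Between 13053 and 14254 genes reached 1 TPM in a QSC library. Below, values per library are given in the order old 1, old 2 and old 3, then young 4, young 5 and young 6, with the numbers of the labels. The cells carried the markers of satellite cells. Myf5, a determination factor of the lineage, had 501, 862 and 761 TPM in old QSC, against 765, 686 and 559 TPM in young QSC. Pax7, the factor that defines satellite cells, had 5.43, 8.55 and 6.41 TPM in old QSC, against 6.16, 6.51 and 5.66 TPM in young QSC. Neither marker separated the ages.

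Old libraries 1 and 3 held more RNA of macrophages, B cells and erythroid cells than the other QSC libraries, and old 1 also of neutrophils. The 16 neutrophil markers summed to 4981 TPM in old 1, 40.1 in old 2 and 29.0 in old 3, against 8.03 to 18.6 TPM in young QSC. In old 1, S100a8, a calcium-binding protein of neutrophils, alone reached 2933 TPM. The 23 macrophage and monocyte markers summed to 640, 129 and 548 TPM in the old libraries, against 43.2 to 101 TPM in the young ones. In the libraries taken after injury, macrophage and monocyte markers summed to 268 to 11560 TPM and neutrophil markers to 50.6 to 521 TPM. B and plasma cell markers summed to 1837, 27.7 and 386 TPM in old QSC and 8.79 to 106 TPM in young QSC, and erythroid markers to 1699, 6.77 and 103 TPM in old QSC and 4.70 to 39.9 TPM in young QSC. Of the measured markers, 22 of 23 of macrophages, 11 of 12 of neutrophils, 6 of 7 of B cells and 4 of 5 of erythroid cells had a higher mean in old cells. Over all genes tested this held for 7664 of 16949. Old 2 was the old library nearest to young cells for macrophage, B cell and erythroid RNA, while for neutrophil RNA old 3 was slightly nearer. T and NK cell markers summed to 50.6, 21.01 and 23.7 TPM in old QSC and 3.73 to 25.6 TPM in young QSC, so old 3 lay within the young range. Some defining markers stayed at the lowest value of the table in nearly every library, such as Ly6g of neutrophils and Pax5 of B cells. The macrophage marker Adgre1 reached 2.40 TPM in old 1 and 1.38 TPM in young 6 and no more than 0.157 TPM in the other QSC libraries. Correlation of log2(TPM + 1) over the genes tested was 0.882 to 0.898 between old libraries and 0.927 to 0.940 between young ones, and old 2 correlated better with the young libraries (0.916 to 0.918) than old 1 and old 3 did (0.891 to 0.895). RNA of endothelial and fibro-adipogenic cells did not follow this pattern. Endothelial markers summed to 40.9, 49.3 and 54.3 TPM in old QSC and 32.9 to 52.0 TPM in young QSC, and fibro-adipogenic markers to 1262, 1540 and 1334 TPM in old QSC and 1204 to 1512 TPM in young QSC. For this reason results are given below with all libraries and also without old 1 and old 3 together. In that case old 2 stands alone against 3 young libraries and is taken to vary as the other groups do.

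**Figure D1:**
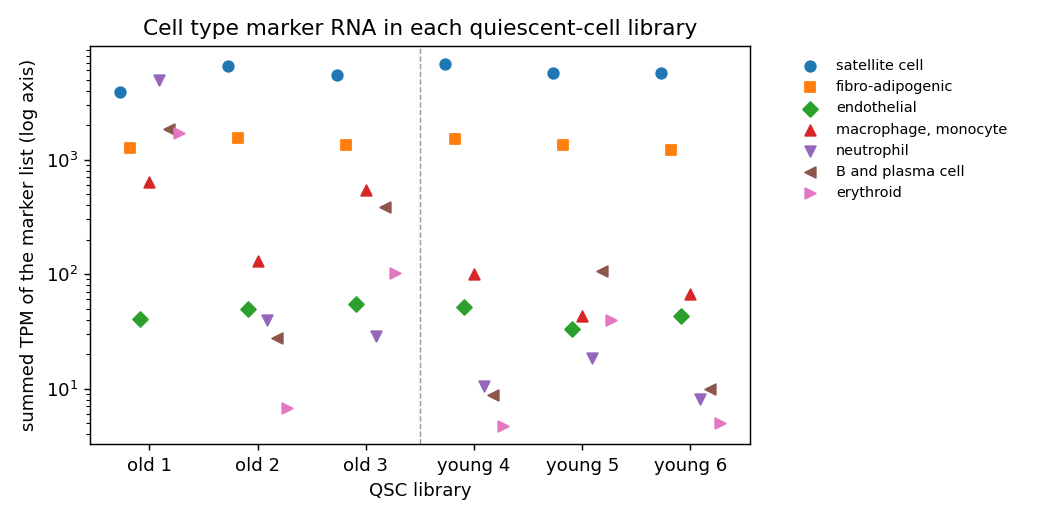
Summed TPM of 7 lists of cell type markers (log axis) in the 3 old QSC libraries (left of the dashed line) and the 3 young QSC libraries (right); each point is 1 library and 1 list. Neutrophil, B cell and erythroid RNA stand highest in old 1, where neutrophil markers sum to 4981 TPM, and macrophage RNA is raised in old 1 and old 3 and lower in old 2.

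Few of the genes tested were called between old and young resting cells, which does not measure how many differ. Of 16949 genes tested, 2382 had a limma p under 0.05 before adjustment. After Benjamini-Hochberg adjustment, 123 (0.726%) were called at a limma adjusted p under 0.05. Old cells were higher for 58 genes (0.342%) and lower for 65 (0.384%). Of the 123 genes, 101 were protein-coding, 8 were pseudogenes and 14 were other non-coding RNAs. All 123 had old and young libraries that did not overlap, a state found for 7.43% of all genes with old higher and 14.3% with old lower. Over all genes tested, the median difference was -0.04 on the log2 scale and 54.8% of genes lay below 0. With TPM rescaled by median-of-ratios, 160 genes were called, 113 higher and 47 lower, so the balance between directions depends on the scaling. The count depends on which libraries and groups enter. It was 13 without old 1 and old 3, 44 without old 1, 293 without old 2, 54 without young 4, 15 without young 5, 22 without young 6, and 1 when the spread was estimated from the QSC groups alone. An immune covariate was also fitted over all libraries of the table, so those taken after injury helped to set its slope. With this covariate, the mean level of macrophage and neutrophil markers in each library, 16 genes were called. Of these markers 1 of 23 and 0 of 12 were themselves called by limma, and the median difference of the neutrophil markers from the young mean was 4.58 in old 1 and -0.01 in each of old 2 and old 3. Among the called genes higher in old cells, old 2 was the nearest of the old libraries to young cells for 27 of 58, and old 1 was the furthest for 30. Among the genes lower in old cells, old 2 was the nearest for 32 of 65 and old 1 the furthest for 46.

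**Figure D2:**
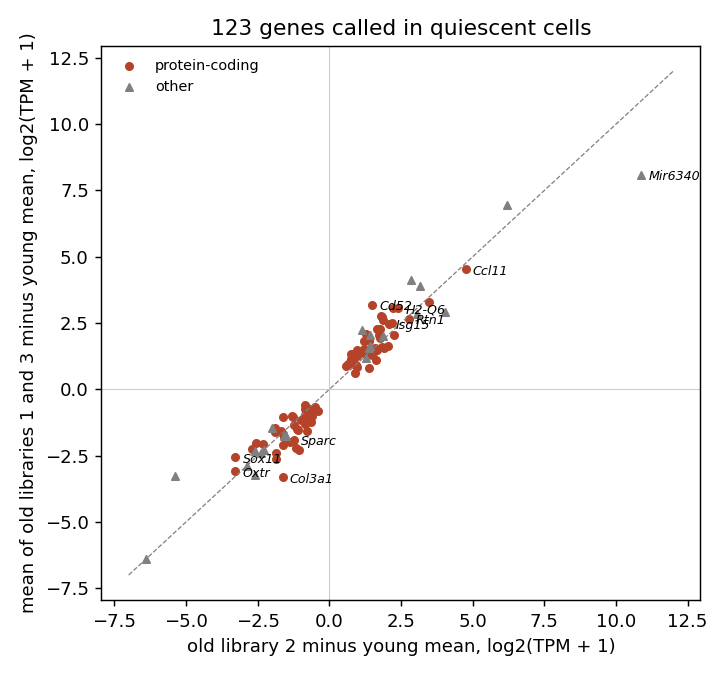
Log2 difference from the young mean for the 123 called genes, in old library 2 (horizontal axis) and as the mean of old libraries 1 and 3 (vertical axis); each point is 1 gene, circles are protein-coding genes and the dashed line marks equal differences. All genes lie on the same side of 0 on both axes, which follows from old and young libraries that do not overlap. Cd52, H2-Q6 and Col3a1 are among those with smaller differences in old 2.

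Among the protein-coding genes named here, the largest change was in a secreted protein. Ccl11 encodes eotaxin, a chemokine that attracts eosinophils, and lies at chr11:82057823-82062955 (GRCm38, plus strand). It had 348, 430 and 388 TPM in old QSC, against 28.8, 12.9 and 8.73 TPM in young QSC. Old cells were thus 23.1 times higher by the means, 388 ± 41.4 TPM in old cells against 16.8 ± 10.6 TPM in young cells (SD, n = 3 each), with no overlap and all 3 old libraries alike. The log2 difference was 4.61 ± 0.37 (SE, limma adjusted p = 1.04e-04), and it was 4.76 in old 2 alone (limma adjusted p = 0.00538) and 4.46 with the immune covariate (limma adjusted p = 0.00303). The call held in 16 of 17 alternative settings and was lost only when the QSC groups were fitted alone. Of the chemokines of monocytes, Ccl7 had 727, 1208 and 1041 TPM in old QSC, against 607, 83.1 and 101 TPM in young QSC, and Ccl2 had 547, 928 and 954 TPM in old QSC, against 641, 92.0 and 94.9 TPM in young QSC. Neither passed the test (limma adjusted p = 0.0762 for Ccl7 and 0.134 for Ccl2), and young 4 stood near the old libraries for both.

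Other secreted proteins rose with Ccl11. Dcn, decorin, a proteoglycan that binds collagen fibrils and TGF-beta, had 430, 440 and 563 TPM in old QSC, against 175, 110 and 108 TPM in young QSC (log2 difference 1.88 ± 0.28, SE, limma adjusted p = 0.0101). Rnase4, a secreted ribonuclease, had 161, 111 and 162 TPM in old QSC, against 54.8, 39.5 and 35.1 TPM in young QSC (1.73 ± 0.30, SE, limma adjusted p = 0.0217). Apoe, apolipoprotein E of lipid transport, was even among old libraries at 2351, 2411 and 2512 TPM, against 1176, 814 and 979 TPM in young QSC (1.31 ± 0.17, SE, limma adjusted p = 0.00453). None of these 3 genes had old and young libraries that overlapped. This holds for all 123 called genes, and 7.43% of all genes were in that state with old higher. In old 2 alone the log2 differences were 1.78 for Dcn, 1.37 for Rnase4 and 1.3 for Apoe, with no adjusted p under 0.05. Dcn is also on the list of fibro-adipogenic markers, of which 11 of 16 measured had a higher mean in old cells. Of these 16 markers 2 were called, Dcn higher (beside 0.342% of all genes) and Col3a1 lower (beside 0.384% of all genes). Another member, the microfibril gene Mfap5, had 16.5, 21.4 and 40.6 TPM in old QSC and 5.42, 12.9 and 5.64 TPM in young QSC, with no call (limma adjusted p = 0.252). Pdgfra, the receptor that defines these cells, had 1.25, 1.53 and 0.153 TPM in old QSC and 0.567, 0.0661 and 0.0652 TPM in young QSC. The part of fibro-adipogenic RNA in these differences was not tested, and in bulk RNA more cells of a type and more RNA per cell cannot be told apart.

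Most genes of collagens and basement membrane had lower means in old cells, and few passed the test. Of 41 measured collagen and basement membrane genes, 29 had a lower mean in old QSC, with a list median of -0.65 on the log2 scale against -0.04 for all genes. By the test across all genes 2 of the 41 fell, against 0.384% of all genes called lower, and none rose. Col3a1, the chain of type III collagen (chr1:45311538-45349706), had 22.7, 73.7 and 21.9 TPM in old QSC, against 233, 284 and 183 TPM in young QSC. Its means were 39.4 ± 29.7 TPM in old cells and 233 ± 50.8 TPM in young cells (SD, n = 3 each), and the log2 difference was -2.75 ± 0.42 (SE, limma adjusted p = 0.0106). Old 2 was the highest old library, and in it alone the log2 difference was -1.63 (limma adjusted p = 0.258). Sparc, a matrix protein that binds collagen and calcium (chr11:55394500-55423183), had 162, 283 and 199 TPM in old QSC, against 646, 789 and 584 TPM in young QSC. Its log2 difference was -1.67 ± 0.18 (SE, limma adjusted p = 7.16e-04), it remained called in old 2 alone (-1.24, limma adjusted p = 0.029) and with the immune covariate (-1.35, limma adjusted p = 0.011). Other members that did not pass the test followed the same direction. Lamc1, a laminin chain of the basement membrane, had 28.5, 42.9 and 39.0 TPM in old QSC, against 77.9, 75.9 and 54.5 TPM in young QSC (log2 difference -0.90, limma adjusted p = 0.073). The fibrillar collagen gene Col1a1 was low in both ages, at 2.03, 1.00 and 0.264 TPM in old QSC, against 3.30, 4.50 and 3.61 TPM in young QSC (limma adjusted p = 0.18). Leaving out old 1 and old 3 moved the list median to -0.18, the largest change of this list over the settings that leave out libraries.

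Other matrix and secreted proteins, and a lysosomal protease, fell too. Pxdn, peroxidasin, which cross-links collagen IV, had 4.32, 9.74 and 8.35 TPM in old QSC, against 28.0, 27.1 and 25.6 TPM in young QSC (log2 difference -1.78 ± 0.27, SE, limma adjusted p = 0.0106). The secreted protease gene Htra1 had 6.56, 10.7 and 15.1 TPM in old QSC, against 26.6, 36.4 and 43.2 TPM in young QSC (-1.67 ± 0.29, SE, limma adjusted p = 0.0217). Lgmn, the lysosomal protease legumain, averaged 21.6 ± 5.21 TPM in old cells and 50.9 ± 2.50 TPM in young cells (SD, n = 3 each, limma adjusted p = 0.0234). The secreted olfactomedin gene Olfm2 had 0.401, 1.40 and 0.435 TPM in old QSC, against 3.89, 10.7 and 10.4 TPM in young QSC (limma adjusted p = 0.0203).

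Several receptors and membrane proteins fell. Oxtr encodes the receptor of oxytocin, a hormone known to act on satellite cells and to fall in the blood of ageing mice, and lies at chr6:112473683-112489943 (minus strand). It had 0.0165, 0.244 and 1.016 TPM in old QSC, against 10.6, 9.23 and 14.0 TPM in young QSC, and 0.0165 is the lowest value that the table gives this gene in old 1. Every young library thus lay above every old one. The log2 difference was -3.15 ± 0.29 (SE, limma adjusted p = 1.98e-04), and it was -3.28 in old 2 alone (limma adjusted p = 0.00266). The call was lost without a pseudocount and with the QSC groups fitted alone. Ngfr, the p75 neurotrophin receptor, had 3.62, 2.89 and 3.70 TPM in old QSC, against 15.5, 15.8 and 25.5 TPM in young QSC (-2.15 ± 0.34, SE, limma adjusted p = 0.0119). The old libraries were close to each other and all were under the lowest young one. Ngfr is also a Schwann cell marker, and of that list 6 of 9 measured members had a higher mean in old cells, while its defining factor Sox10 was at most 0.0248 TPM in any QSC library. Met, the receptor of hepatocyte growth factor, which activates satellite cells, had 8.82, 11.6 and 7.48 TPM in old QSC, against 21.99, 22.5 and 20.4 TPM in young QSC (-1.15 ± 0.19, SE, limma adjusted p = 0.0153). Flrt1, a leucine-rich membrane protein, had 0.673, 1.61 and 1.08 TPM in old QSC, against 6.10, 5.25 and 10.9 TPM in young QSC (limma adjusted p = 0.0106). Otoa, a membrane-anchored protein known from the inner ear, averaged 3.22 ± 0.882 TPM in old cells and 19.0 ± 6.54 TPM in young cells (SD, n = 3 each, limma adjusted p = 0.0106). The calcium sensor Ncs1 averaged 26.1 ± 14.6 TPM in old cells and 90.9 ± 4.36 TPM in young cells (SD, n = 3 each, limma adjusted p = 0.0223). For Ncs1 the old libraries disagreed, with 17.5, 42.9 and 17.8 TPM.

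Membrane proteins rose as well. Osmr, a receptor chain for oncostatin M, had 67.6, 89.8 and 92.4 TPM in old QSC, against 47.6, 29.2 and 22.5 TPM in young QSC (log2 difference 1.36 ± 0.27, SE, limma adjusted p = 0.0402). The sodium channel gene Scn7a had 27.2, 13.0 and 24.2 TPM in old QSC, against 4.47, 3.13 and 1.76 TPM in young QSC (2.44 ± 0.46, SE, limma adjusted p = 0.0318). Ms4a4d, of the membrane-spanning 4A family, averaged 138 ± 14.1 TPM in old cells and 48.2 ± 21.6 TPM in young cells (SD, n = 3 each, limma adjusted p = 0.0474). Rtn1, a reticulon that shapes the endoplasmic reticulum, had 4.20, 7.40 and 10.7 TPM in old QSC, against 0.0375, 0.0371 and 0.733 TPM in young QSC, and 2 of the young values are the lowest the table gives this gene there. Rtn1 was called with all libraries (2.70 ± 0.33, SE, limma adjusted p = 0.00284), in old 2 alone (2.77, limma adjusted p = 0.029) and with the immune covariate (2.96, limma adjusted p = 0.0151). Inside the cell, the phosphodiesterase gene Pde1a averaged 8.92 ± 2.90 TPM in old cells and 0.889 ± 0.505 TPM in young cells (SD, n = 3 each, limma adjusted p = 0.0358), and the Ras-like gene Rasl11a 21.2 ± 13.4 TPM in old cells and 3.90 ± 1.58 TPM in young cells (SD, n = 3 each, limma adjusted p = 0.034).

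**Figure D3:**
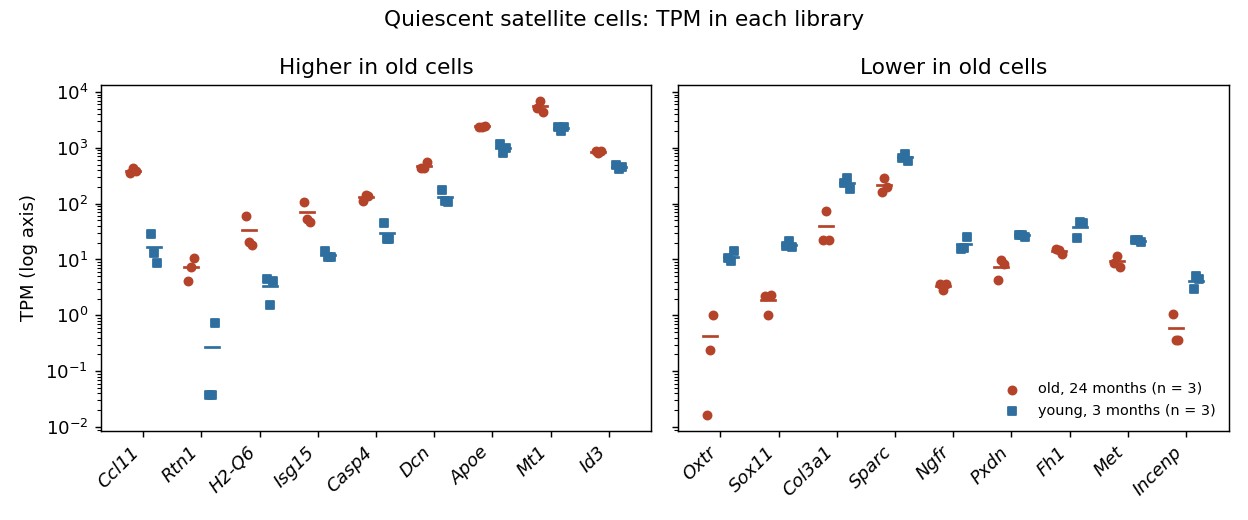
TPM (log axis) of 9 genes higher and 9 genes lower in old QSC, all with adjusted p under 0.05. Red circles are the 3 old libraries and blue squares the 3 young ones, lines are means, and no gene has old and young libraries that overlap; values under about 0.1 TPM for Oxtr and Rtn1 are the lowest the table gives.

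Most genes of interferon response and antigen presentation had higher means in old cells, and few passed the test. Type I interferon acts through a transcription factor complex that binds the interferon-stimulated response element (ISRE), and MHC class I presents peptides on nearly all cells. Of 40 interferon-stimulated genes 35 had a higher mean in old cells, with a median log2 difference of 0.77, and 2 rose by the test, Isg15 and Rtp4. Of 19 MHC class I and antigen processing genes 16 had a higher mean, with a median of 0.70, and 3 rose, B2m, H2-Q6 and H2-Q7, beside 0.342% of all genes called higher. No member of either list fell. Isg15, a ubiquitin-like modifier, had 109, 53.5 and 46.6 TPM in old QSC, against 14.4, 10.9 and 10.9 TPM in young QSC (2.34 ± 0.46, SE, limma adjusted p = 0.0375). Old 1 was the highest, and the other old libraries also lay above all young ones. Rtp4, an interferon-induced chaperone of receptors, had 32.3, 20.2 and 26.3 TPM in old QSC, against 3.83, 5.30 and 6.81 TPM in young QSC (2.11 ± 0.45, SE, limma adjusted p = 0.0488). B2m, the light chain of MHC class I, had 3756, 2376 and 2644 TPM in old QSC, against 1495, 1016 and 1142 TPM in young QSC (1.25 ± 0.24, SE, limma adjusted p = 0.0318). The class I heavy chain gene H2-Q6 had 60.7, 20.8 and 18.04 TPM in old QSC, against 4.40, 1.52 and 4.06 TPM in young QSC (limma adjusted p = 0.0165), and H2-Q7 38.6, 10.7 and 10.5 TPM in old QSC, against 1.53, 0.948 and 2.23 TPM in young QSC (limma adjusted p = 0.0318). These 2 genes share 78.0% and 31.5% of their longest transcript with other genes of the family, and Isg15 shares 63.8% with another annotated gene, so their reads may have been split between copies. Psmb8, a subunit of the immunoproteasome, had 80.7, 37.5 and 43.3 TPM in old QSC, against 22.98, 5.58 and 15.7 TPM in young QSC and missed the threshold (limma adjusted p = 0.0567).

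The bases before the starts of Isg15 and B2m are shown because they hold letters of the ISRE, in the RefSeq windows of GRCm38.p6, 5′ to 3′ on the strand of the gene and ending just before its start. Capitals mark matches, on either strand, to a pair of GAAA with 2 bases of any kind between them. Isg15 is at chr4:156200819-156201068 (minus strand) with 3 matches that overlap each other, and B2m at chr2:122147437-122147686 (plus strand) with 1.
Isg15: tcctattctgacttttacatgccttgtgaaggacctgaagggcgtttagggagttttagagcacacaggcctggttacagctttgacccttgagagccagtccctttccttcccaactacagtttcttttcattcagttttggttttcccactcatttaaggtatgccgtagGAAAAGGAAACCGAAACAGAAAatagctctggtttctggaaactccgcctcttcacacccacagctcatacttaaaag
B2m: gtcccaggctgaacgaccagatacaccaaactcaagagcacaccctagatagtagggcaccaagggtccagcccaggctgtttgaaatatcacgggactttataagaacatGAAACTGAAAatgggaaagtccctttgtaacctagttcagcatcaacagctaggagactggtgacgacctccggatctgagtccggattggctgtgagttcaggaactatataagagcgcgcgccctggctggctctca
Of 32851 such windows of 250 bases, 2.98% hold at least 1 match and 0.180% hold 2 or more. A match is a description of letters and no evidence of binding. The windows of H2-Q6, H2-Q7 and Sp110 hold no match, and Ccl11, Rtp4 and Per2 had no window in the table.

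With all libraries the median was 0.77 for the interferon list and 0.70 for the MHC class I list. Without old 1 and old 3 the median of the interferon list was 0.50 and that of the MHC class I list 0.75, and with the immune covariate they were 0.38 and 0.42. In old 2 alone the log2 differences were 2.07 for Isg15, 2.41 for H2-Q6 and 0.98 for B2m, and with the covariate 1.48, 1.96 and 0.81, none with an adjusted p under 0.05. Macrophage markers summed to 129 TPM and neutrophil markers to 40.1 TPM in old 2, which is also above every young library. MHC class II genes, which present antigen on immune cells, had higher means in old cells for 7 of 7 measured, with a median of 1.99, and none was called. Cd74, the invariant chain of class II, had 230, 156 and 351 TPM in old QSC, against 105, 23.9 and 71.4 TPM in young QSC (limma adjusted p = 0.315). The part of immune RNA in these differences was not tested beyond these values.

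Several called genes are best known from leukocytes. Cd14, the lipopolysaccharide co-receptor of monocytes, had 92.0, 55.9 and 95.8 TPM in old QSC, against 21.1, 12.3 and 11.8 TPM in young QSC (limma adjusted p = 0.041). It was the only member of the 23 macrophage markers to pass the test, beside 0.342% of all genes called higher. Cd52, a lymphocyte surface glycoprotein, had 37.8, 10.6 and 35.1 TPM in old QSC, against 3.81, 4.62 and 1.59 TPM in young QSC (limma adjusted p = 0.0407). Of the old libraries old 2 was the lowest for Cd52, and the part of immune RNA in its difference was not tested. Rhoh, a GTPase of blood cells, was more even, with 53.3, 41.2 and 51.1 TPM in old QSC, against 14.8, 8.996 and 12.2 TPM in young QSC (limma adjusted p = 0.0153). Casp4, the mouse caspase of the non-canonical inflammasome, had 112, 140 and 137 TPM in old QSC, against 44.5, 22.98 and 23.3 TPM in young QSC (log2 difference 2.12 ± 0.27, SE, limma adjusted p = 0.00361). Old 2 was its highest old library. Its difference was 2.17 with the immune covariate (limma adjusted p = 0.0395) and 2.24 in old 2 alone, where it was not called (limma adjusted p = 0.0789). Sp110, a nuclear body protein induced by interferon, had 16.6, 7.21 and 12.5 TPM in old QSC, against 2.02, 0.909 and 1.11 TPM in young QSC (limma adjusted p = 0.0337), but 100% of its longest transcript matches other annotated genes, so its level is uncertain.

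Of 30 measured genes on the list of NRF2 antioxidant genes, 4 rose and none fell, beside 0.342% of all genes called higher. The list as a whole did not stand out by its median, which was 0.10 against -0.04 for all genes, and 12 of the 30 had a lower mean in old cells. The 4 were the metallothionein genes Mt1 and Mt2, small proteins that bind zinc and copper, the glutathione transferase gene Gstm1 and Gpx4, the peroxidase of lipid hydroperoxides. Mt1 had 5280, 7009 and 4446 TPM in old QSC, against 2407, 2026 and 2338 TPM in young QSC, means of 5578 ± 1308 TPM in old cells and 2257 ± 203 TPM in young cells (SD, n = 3 each). The log2 difference was 1.28 ± 0.19 (SE, limma adjusted p = 0.00951), and Mt1 was called in old 2 alone (1.64, limma adjusted p = 0.0276) and with the immune covariate (1.48, limma adjusted p = 0.0286). Mt2, its neighbour on chromosome 8, had 2767, 4103 and 2750 TPM in old QSC, against 1588, 1482 and 1703 TPM in young QSC (0.99 ± 0.19, SE, limma adjusted p = 0.0318). For both metallothioneins old 2 was the highest of the old libraries. Gstm1 had 2259, 1483 and 1677 TPM in old QSC, against 965, 844 and 809 TPM in young QSC (limma adjusted p = 0.0407), and Gpx4 had 517, 602 and 477 TPM in old QSC, against 349, 320 and 300 TPM in young QSC (limma adjusted p = 0.0261). Gstm1, Gpx4 and Mt2 share 51.0%, 73.7% and 41.5% of a transcript with pseudogenes or other copies. Other members did not move alike. Hmox1, heme oxygenase, had 15.1, 25.3 and 69.1 TPM in old QSC, against 34.2, 150 and 99.2 TPM in young QSC (limma adjusted p = 0.248).

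The windows before both metallothionein genes are shown for the metal response element (MRE), the site of the zinc-sensing factor MTF1, in the same table and orientation. Capitals mark matches to TGCACNC or TGCGCNC on either strand. Mt1 is at chr8:94178839-94179088 with 1 match and Mt2 at chr8:94172368-94172617 with 3, both on the plus strand.
Mt1: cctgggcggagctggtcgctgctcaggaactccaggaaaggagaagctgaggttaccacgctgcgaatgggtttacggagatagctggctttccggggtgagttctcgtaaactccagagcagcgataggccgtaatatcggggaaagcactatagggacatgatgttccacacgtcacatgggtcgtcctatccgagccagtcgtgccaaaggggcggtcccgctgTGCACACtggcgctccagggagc
Mt2: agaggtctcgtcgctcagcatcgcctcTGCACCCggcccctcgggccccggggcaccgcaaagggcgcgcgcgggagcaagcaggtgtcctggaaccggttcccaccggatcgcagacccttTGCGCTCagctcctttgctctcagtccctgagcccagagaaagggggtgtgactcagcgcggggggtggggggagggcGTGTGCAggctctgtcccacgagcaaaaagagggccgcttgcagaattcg
Of all windows 21.4% hold at least 1 match to these letters and 5.17% hold 2 or more, so a single match is common. A match in any of a gene's windows was found for 30.3% of 33 called higher genes with a window and 34.7% of 49 called lower ones. Some genes have several windows, so these shares per gene cannot be set against the 21.4% per window. The Mt2 window ends at 94172617, while the gene annotation starts Mt2 at 94172664, and sites outside the windows were not counted.

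Transcription regulators moved in both directions. Sox11, an HMG-box factor of neural and other progenitors (chr12:27334264-27342574), had 2.26, 1.01 and 2.33 TPM in old QSC, against 17.7, 21.5 and 16.4 TPM in young QSC. The old libraries were all far below the young ones, at means of 1.87 ± 0.743 TPM in old cells and 18.6 ± 2.63 TPM in young cells (SD, n = 3 each). The log2 difference was -2.80 ± 0.26 (SE, limma adjusted p = 1.98e-04), -3.27 in old 2 alone (limma adjusted p = 9.93e-04) and -2.98 with the immune covariate (limma adjusted p = 0.00303). Elk3, an ETS factor, had 3.40, 10.4 and 12.7 TPM in old QSC, against 36.5, 37.6 and 46.6 TPM in young QSC (limma adjusted p = 0.0354). Id1 and Id3, inhibitors of basic helix-loop-helix factors such as MyoD and targets of BMP signalling, were the 2 genes called on the TGF-beta and BMP list, where 15 of 37 had a higher mean, beside 0.342% of all genes called higher. Id3 was tightly grouped, at 872, 820 and 861 TPM in old QSC, against 490, 412 and 456 TPM in young QSC (0.91 ± 0.11, SE, limma adjusted p = 0.00284), and it was called with the immune covariate (0.90, limma adjusted p = 0.0395). Id1 had 168, 134 and 163 TPM in old QSC, against 53.1, 80.4 and 72.4 TPM in young QSC (1.18 ± 0.16, SE, limma adjusted p = 0.00644). Per2, a repressor of the circadian clock, had 14.5, 10.9 and 15.7 TPM in old QSC, against 3.58, 3.84 and 3.17 TPM in young QSC (1.69 ± 0.33, SE, limma adjusted p = 0.0354). Of 19 clock genes it was the only one called, against the same share of all genes, 13 had a higher mean in old cells, and the activator Arntl had 24.9, 58.5 and 51.3 TPM in old QSC, against 69.1, 83.2 and 88.4 TPM in young QSC (limma adjusted p = 0.224). The time of day at which cells were taken is not in the labels. Asb4, a substrate adaptor of a ubiquitin ligase, averaged 0.992 ± 1.27 TPM in old cells and 8.33 ± 1.98 TPM in young cells (SD, n = 3 each, limma adjusted p = 0.0447).

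Most genes of the TCA cycle, of oxidative phosphorylation and of the proteasome had slightly lower means in old cells, and few passed the test. Over all genes 54.8% lay below 0 and 0.384% were called lower. Genes of fatty acid oxidation were even, with 14 of 28 lower, a median of -0.02 and none called. Lower means were not particular to these lists. They were found for 69 of 74 cytosolic ribosomal proteins (median -0.16) and 60 of 78 mitochondrial ribosomal proteins (-0.22). Mitophagy and autophagy genes had 30 of 41 lower (-0.16), and none of these 3 lists had a called member. Of 20 genes of the TCA cycle 18 had a lower mean, with a median of -0.42, and 1 fell, Fh1, fumarase, which had 15.3, 15.03 and 12.7 TPM in old QSC, against 23.8, 47.0 and 44.9 TPM in young QSC (-1.31 ± 0.23, SE, limma adjusted p = 0.0217). Of 74 nuclear-encoded subunits of oxidative phosphorylation 65 had a lower mean, with a median of -0.26, and 1 fell, Sdhd of complex II, which had 58.5, 72.3 and 73.4 TPM in old QSC, against 116, 124 and 104 TPM in young QSC (limma adjusted p = 0.0457). Of 31 proteasome subunits 30 had a lower mean, with a median of -0.33, and 2 fell, Psmd2 and Psmd8 of the regulatory particle. Psmd8 had 150, 183 and 157 TPM in old QSC, against 263, 299 and 267 TPM in young QSC (-0.76 ± 0.13, SE, limma adjusted p = 0.0217). Psmd2 averaged 120 ± 9.12 TPM in old cells and 230 ± 28.1 TPM in young cells (SD, n = 3 each, limma adjusted p = 0.0106), but 91.9% of its longest transcript matches a pseudogene. The list medians were smaller in old 2, at -0.29, -0.08 and -0.14 for the TCA cycle, oxidative phosphorylation and the proteasome, beside -0.01 for all genes there. With median-of-ratios scaling of all libraries they were -0.30, -0.14 and -0.21, beside 0.03 for all genes. The 13 mRNAs of the mitochondrial genome had a median of -0.13 with none called. Ndufaf2, an assembly factor of complex I, fell, with 17.1, 26.6 and 21.99 TPM in old QSC, against 58.3, 64.1 and 50.6 TPM in young QSC (-1.37 ± 0.16, SE, limma adjusted p = 0.00255), but 81.3% of its longest transcript is shared with other genes. Gpam, the first acyltransferase of glycerolipid synthesis in mitochondria, averaged 4.13 ± 1.26 TPM in old cells and 14.7 ± 4.19 TPM in young cells (SD, n = 3 each, limma adjusted p = 0.0294). Tusc3, a subunit of the oligosaccharyltransferase, averaged 4.95 ± 0.963 TPM in old cells and 14.2 ± 1.20 TPM in young cells (SD, n = 3 each, limma adjusted p = 0.0106).

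The gene at the centre of the series, Dnm1l, which encodes the mitochondrial fission GTPase Drp1, was not called. It had 14.6, 31.7 and 35.5 TPM in old QSC, against 37.5, 32.5 and 30.2 TPM in young QSC, a log2 difference of -0.37 with a 95% interval of -0.96 to 0.21 (limma adjusted p = 0.602). Only old 1 lay below the young range, and without it the difference was 0.01. None of 19 measured fission and fusion genes was called.

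**Figure D4:**
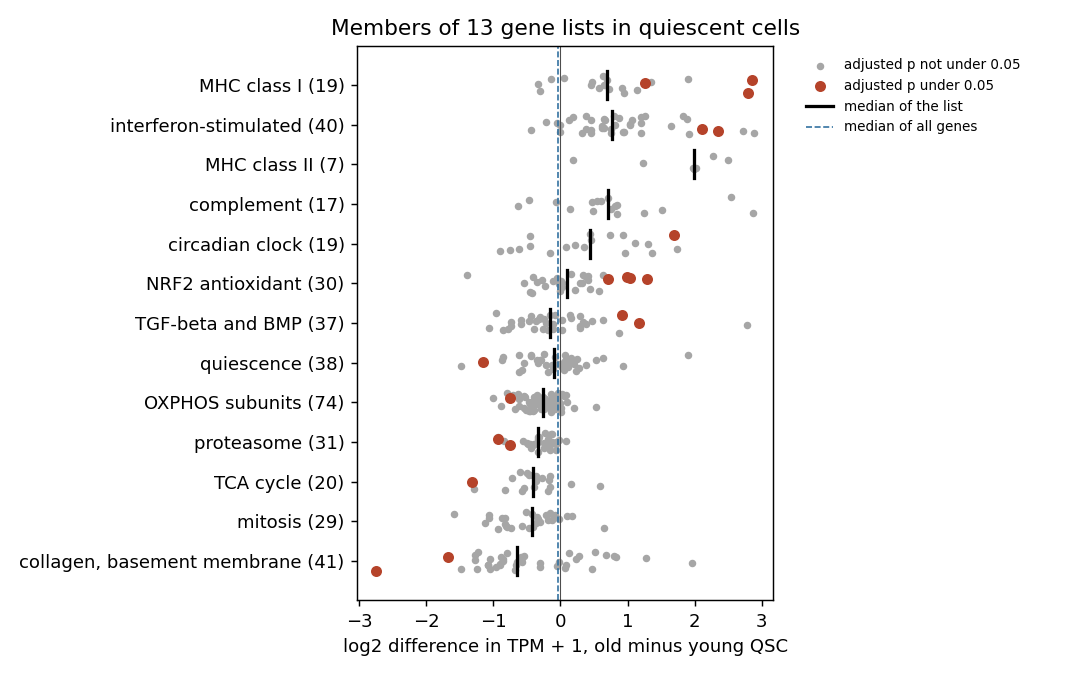
Log2 difference in TPM + 1, old minus young QSC, for the measured members of 13 gene lists (number measured in brackets). Each point is 1 gene, large red points have an adjusted p under 0.05, black bars are list medians and the dashed line is the median of all genes, -0.04; medians run from 1.99 for MHC class II to -0.65 for collagen and basement membrane.

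Most genes of satellite cell identity, quiescence, cell cycle arrest and senescence were not called. On the quiescence list 17 of 38 had a higher mean, the median was -0.10 (0.01 with median-of-ratios scaling), and Met was the 1 member called, beside 0.384% of all genes called lower. The log2 differences were 0.12 for Pax7 (95% interval -0.49 to 0.72), 0.05 for Myf5 (-0.38 to 0.49), -0.44 for the calcitonin receptor gene Calcr (-1.305 to 0.43) and -0.30 for Spry1, an inhibitor of growth factor signalling (-1.08 to 0.47). The intervals of Calcr and Spry1 reach past -1, so a loss of that size was within the error of these libraries. Myod1, the myogenic determination factor, had 256, 618 and 325 TPM in old QSC, against 614, 656 and 673 TPM in young QSC (-0.80, interval -1.40 to -0.20, limma adjusted p = 0.208). Old 1 and old 3 were low and old 2 lay within the young range, and in old 2 alone the difference was -0.07. At 1 DPI Myod1 had 244 to 393 TPM in old cells and 302 to 438 TPM in young cells, so most QSC libraries were not below that level. The 26 measured immediate-early genes summed to 4692 to 6409 TPM in QSC, against 1091 to 6103 TPM after injury, with none called between ages. Whether isolation changed these levels was not tested. Of the cyclin-dependent kinase inhibitors, Cdkn1a, p21, had 812, 656 and 797 TPM in old QSC, against 639, 742 and 921 TPM in young QSC, with a log2 difference of -0.01 (interval -0.36 to 0.34). Cdkn2a, p16, a mark of senescent cells, was at most 0.523 TPM in old QSC and 0.521 TPM in young QSC, and 2 libraries of each age were at its lowest value in the table. Cdkn2c, p18, had 36.4, 26.3 and 49.8 TPM in old QSC, against 13.2, 14.0 and 15.4 TPM in young QSC, without overlap, and just missed the threshold (limma adjusted p = 0.0586). Of 40 genes of the senescence-associated secretory phenotype, 25 had a higher mean and none was called. Gadd45a, a stress gene induced by p53 and other factors, rose, with 159, 154 and 107 TPM in old QSC, against 64.1, 31.5 and 38.3 TPM in young QSC (1.67 ± 0.27, SE, limma adjusted p = 0.0137), as the 1 called member of 27 p53 targets, of which 10 had a higher mean, beside 0.342% of all genes called higher. Genes of mitosis had low values in both ages, 26 of 29 with a lower mean in old cells and none called. Incenp, a centromere protein of the chromosomal passenger complex, which is not on that list and was picked out after its values were seen, had 1.07, 0.357 and 0.367 TPM in old QSC, against 3.02, 4.97 and 4.53 TPM in young QSC (-1.71 ± 0.26, SE, limma adjusted p = 0.0106).

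Some small non-coding RNAs were called, and they are named here after their values were seen. The small nucleolar RNA gene Gm23803 had 124, 76.0 and 133 TPM in old QSC and was at its lowest value in the 3 young libraries (limma adjusted p = 0.0101). Another, Gm26397, was at its lowest value in the 3 old libraries, against 115, 128 and 42.7 TPM in young QSC (limma adjusted p = 0.0106). No fold change is given, since the values at the lowest level are not measurements of the gene, and the adjusted p rests on them too. Mir6340 had 329, 2123 and 290 TPM in old QSC and its lowest value in young QSC (limma adjusted p = 0.0314), but 100% of it lies in sequence shared with Rab22a. For each of these RNAs the 3 QSC libraries in which it was high were enough to pass the filter. The filter and the test are thus not independent for them.

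With the same test 24 of 16949 genes (0.142%) were called between old and young cells at 1 DPI, and 4 of these were also among the 123 called in QSC, all with the same sign. The QSC count was under 24 without young 5 (15), without young 6 (22) and without old 1 and old 3 (13), so the 2 counts have no stable order. The shared genes were Sox11, Incenp, Anxa3, an annexin, and the non-coding C230004F18Rik, the last 3 chosen after their values were seen. Sox11 had 3.25, 4.93 and 2.76 TPM in old 1 DPI cells, against 42.0, 36.9 and 34.8 TPM in young 1 DPI cells (-3.09, limma adjusted p = 1.70e-04). It was low in old cells in both states, but old cells at 3 DPI had 44.1, 41.0 and 47.05 TPM, with no young 3 DPI group beside them. Incenp had 17.97, 16.2 and 25.9 TPM in old 1 DPI cells, against 60.9, 56.2 and 55.8 TPM in young 1 DPI cells (-1.51, limma adjusted p = 0.038). Anxa3 had 128, 94.8 and 131 TPM in old 1 DPI cells, against 41.0, 33.6 and 39.7 TPM in young 1 DPI cells (1.59, limma adjusted p = 0.00789). Ccl11 was higher in all old libraries at 1 DPI, with 358, 264 and 510 TPM, against 125, 111 and 66.5 TPM in young 1 DPI cells, without passing the test (1.89, limma adjusted p = 0.0649). Sparc had 441, 391 and 356 TPM in old 1 DPI cells, against 632, 699 and 601 TPM in young 1 DPI cells (-0.70, limma adjusted p = 0.189). The part of immune RNA in the 1 DPI differences was not tested.

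Of the 41 genes named by the rule and called in QSC, 35 had a 1 DPI difference on the same side of 0 and 1, Sox11, was called. These genes were chosen for their QSC difference, so smaller values at 1 DPI, found for 40 of 41, are a description. The difference between the age effects was itself tested as an interaction, and 2 of 16949 genes (0.0118%) passed, Oxtr and the predicted non-coding gene Gm48294. Oxtr was at its lowest value in all 6 libraries at 1 DPI, from 0.0176 to 0.019 TPM in old cells and 0.0186 to 0.0193 TPM in young cells (interaction -3.15, limma adjusted p = 0.0191). Gm48294 (chr9:40715158-40720034), which shares 42.7% of its longest transcript with another predicted gene, had 7.64, 7.84 and 5.50 TPM in old QSC, against 0.0522, 0.0517 and 0.0511 TPM in young QSC. At 1 DPI its highest value was 1.20 TPM, in 1 young library, and the others were at the lowest value of the table (interaction 3.27, limma adjusted p = 0.0191). Both genes passed the filter on low values almost only through the QSC group in which they were high, so the filter and the interaction are not independent for them. Values at the lowest level are not measurements, so the interaction of Oxtr restates its QSC difference. For Gm48294 the same holds for all 1 DPI values but 1. No gene was called for the interaction with a pseudocount of 0.1, with no pseudocount, with a filter of 5 TPM, with only the QSC and 1 DPI groups fitted, with the immune covariate, or without old 2, young 5 or young 6. The count was 5 without young 4, 8 without old 1, 4 without old 3 and 9 without old 1 and old 3. For the other genes named here the interaction did not pass, including Ccl11 (2.71, limma adjusted p = 0.161), Rtn1 (2.56, limma adjusted p = 0.142), Id3 (0.95, limma adjusted p = 0.142) and Col3a1 (-1.54, limma adjusted p = 0.466).

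**Figure D5:**
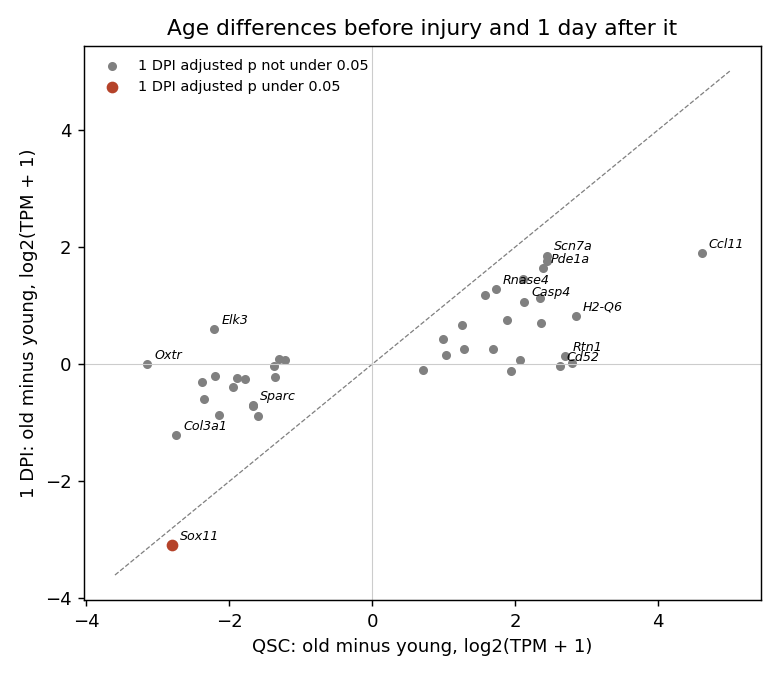
Log2 difference, old minus young, in QSC (horizontal axis) and at 1 DPI (vertical axis) for the 41 genes named by the rule and called in QSC; each point is 1 gene, the red point is called at 1 DPI and the dashed line marks equal differences. Sox11 lies on the line at about -3 in both states, Oxtr lies at 0 at 1 DPI, and Ccl11 is at 1.89 there.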

How the data were processed

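RNA-seq libraries of freshly sorted satellite cells were sequenced single-end on a HiSeq instrument, per the labels' protocols, which describe a directional preparation and also a kit for low input. The authors deposited TPM per gene. Per the submitters' processing notes, the tools were RSEM 1.3.1, cutadapt 1.7.1 and CASAVA 1.8.2, with the GRCm38 build. No aligner is given in the sources used here. TPM keep no read counts, so the depth and the counting error are unknown. The deposited TPM hold no 0: of 13091 genes low in both QSC groups, 99.4% had the same lowest value in old and young cells within 0.01 log2, so a value at that level is not a measurement, and levels and folds of low genes are affected by it.

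Gene symbols came from the GENCODE annotation. A gene was kept where 3 or more of the 15 libraries of the young and old table reached 1 TPM. Differences were tested on log2(TPM + 1) with limma 3.58.1 in R 4.3.3, with 1 mean per group over all 15 libraries, a trended prior variance and two-sided Benjamini-Hochberg adjustment over the 16949 genes kept; a gene was called at an adjusted p under 0.05. A fold change on this scale understates the change of low genes. The interaction is the age difference in QSC minus that at 1 DPI. On simulated data with 200 genes changed, the test found 22% of genes shifted by 1 log2 unit and 70% of those shifted by 2, with 7.8 false calls on average over 5 runs. The noise was drawn separately for each gene with the same spread in all groups, and no low genes were shifted. It did not include the larger differences between old libraries or immune RNA shared across genes, so these rates may be better than those in the real data.

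Named genes were up to 10 of the largest called differences in each direction among protein-coding or named long non-coding genes with a mean of 5 TPM or more in the higher age and libraries that did not overlap, up to 8 more in each direction ranked by the smallest difference of any old library, up to 4 members of lists with several called members, 8 genes named in any case (Pax7, Myod1, Myf5, Calcr, Spry1, Cdkn1a, Cdkn2a and Dnm1l), and genes called for the interaction. Members of the 51 gene lists are named as examples. Apoe, Incenp, Anxa3 and the non-coding genes lie outside the rule and the lists and were chosen after their values were seen. The members and lists were chosen with earlier results of these data known. Shared sequence was found with blastn 2.17.0 (95% identity or more over 100 bases or more), and motifs were searched in RefSeq windows. The 17 alternatives changed the pseudocount, the filter, the scaling, the groups fitted, the weights, the prior and the libraries, or added the mean level of macrophage and neutrophil markers as a covariate.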

Additional observations from a re-analysis of the deposited data

Results flagged for a closer look

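A test of whether the age difference differed between resting cells and cells 1 day after injury called 2 genes (limma interaction, Benjamini-Hochberg adjusted p = 0.0191 for both). For Oxtr the age difference in QSC minus that at 1 DPI was -3.15 on the log2 scale, with all 3 old QSC libraries below all 3 young ones. All 6 libraries at 1 DPI were at the lowest value of the table for Oxtr, which is not a measurement, so its interaction restates the QSC difference. For Gm48294 it was 3.27, with all 3 old QSC libraries above all 3 young ones. Neither call is firm: no gene was called with a pseudocount of 0.1, with no pseudocount, with a filter of 5 TPM, with only the QSC and 1 DPI groups fitted or with the immune covariate. Both genes passed the filter on low values almost only through the QSC group in which they were high.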

How the results depend on the processing

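No paired analysis was possible because the old QSC libraries carry the numbers 1 to 3 and the young ones 4 to 6. Against 123 genes called, other settings gave 26431 with no filter, of which 24756 are genes under 1 TPM in every QSC library, 208 with a filter of 5 TPM, 199 with the filter set within QSC, 1 with only the QSC groups fitted, 57 with a constant prior variance, 13 without old 1 and old 3, and 16 with the immune covariate. Leaving out 1 library gave 15 (without young 5) to 293 (without old 2). Of the 123 genes, 9 were called without old 1 and old 3 and 13 with the covariate. The interaction, with 2 genes called and 1497 at an unadjusted p under 0.05, gave 0 with a pseudocount of 0.1, with none, with a filter of 5 TPM, with only the QSC and 1 DPI groups and with the covariate, 7 with no filter, 9 without old 1 and old 3, and 0 to 8 when 1 library was left out. The 24 called members of the lists became 213 with no filter, 38 with a filter of 5 TPM, 37 with the filter set within QSC, 0 with only the QSC groups, 12 with a constant prior variance, 2 without old 1 and old 3, 3 with the covariate, and 3 to 57 when 1 library was left out. Of 880 values of the 52 named genes under alternatives, 593 kept direction and call, 263 lost the call, 9 gained it and 15 changed sign; the 15 belong to 6 genes not called. When 1 library was left out, the log2 difference ran from -0.137 to 0.127 for Cdkn1a (0.085 without old 2), from -0.188 to 0.182 for Cdkn2a (0.09 without old 2 and also without old 3), from -0.603 to 0.0119 for Dnm1l, from -0.106 to 0.285 for Myf5 and from -0.0407 to 0.245 for Pax7. With median-of-ratios scaling it was 0.11 for Cdkn1a and 0.0223 for Cdkn2a. With the covariate it was 0.0966 for Dnm1l and 0.0897 for Spry1, and Spry1 was at 0.319 without old 1 and old 3. Except for the missing filter, the cause was not tested. With 3 libraries a group and unknown depth, a missed call does not show that a gene did not differ.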
